A study of Mus musculus with 8 samples.

Results

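The histone methyltransferases and demethylases are the enzymes that place and remove methyl groups on the lysine and arginine residues of histone tails, taken here with the subunits that H3K4 methyltransferases share. They were chosen by gene symbol, as the KDM, KMT, SETD, SUV, EHMT, PRMT, NSD and SMYD families with Setmar, Dot1l, Ash1l, Ash2l, Wdr5, Rbbp5, Dpy30, Carm1, Phf2, Phf8 and Jmjd6. This rule took 68 of the 38924 genes in the file. The sterol enzyme gene Nsdhl matched only by its letters and was set aside, which left 67 enzymes and subunits. Of these, 61 passed the filter on low values and were tested. RNA sequencing was done on 8 libraries of C57BL/6 mouse embryos. They were 3 of inner cell mass (ICM) from diapaused blastocysts, 2 of post-implantation epiblast at embryonic day 6.5, and 3 of ICM from blastocysts at embryonic day 3.5. Diapause was brought on at day 3.5 by tamoxifen and 0.5 mg of Depo Provera given to the mother, and the blastocysts were collected 5 days later. All blastocysts came from superovulated females and had their trophectoderm lysed by antibody and complement. Every library pooled the lysates of about 50 embryos, and the RNA was amplified before library preparation. Arrest, the age of the embryo and the hormone treatment therefore cannot be told apart in diapaused ICM, nor can stage and method of isolation in epiblast.

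Methylation marks are read by their position: H3K4 methylation lies at promoters and enhancers, H3K36 and H3K79 methylation over transcribed genes, H3K9, H3K27 and H4K20 methylation largely in silent or compacted chromatin. SET-domain enzymes and the DOT1L family write them on lysine, the PRMT family on arginine, and the LSD1 and JmjC families erase them. In the mouse embryo these marks are reset between fertilization and implantation, and the exit from naive pluripotency is accompanied by a rearrangement of enhancer and heterochromatin marks. In diapause the blastocyst pauses and implantation is delayed.

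Levels are the authors' adjusted TPM, a transcript abundance per gene whose columns sum to between 720674 and 1179026, and the read depth is unknown. Between 55 and 59 of the 67 genes were at 1 or more in each library. All 8 libraries carry the label female, yet transcripts of the Y-linked genes Eif2s3y (7.66 to 25.9) and Ddx3y (1.57 to 5.28) were present in every library beside Xist (25 to 100). The labelled tissues carried their markers. Fgf5, a gene of the post-implantation epiblast, was at most 0.154 in diapaused ICM, 145 and 68.9 in epiblast and at most 1.07 in ICM. Nanog was at 69.3 or more everywhere, though lower in epiblast than in ICM (-1.26 ± 0.37, adjusted p = 0.0341 by limma). Of 7 pluripotency markers, 0 were higher and 6 lower in epiblast than in ICM. In diapaused ICM relative to ICM, 0 were higher and 1 lower. Other cell types moved with the groups. The summed level of 8 primitive endoderm markers was 209.6 to 343 in diapaused ICM (5 higher and 1 lower than in ICM), 14.6 and 26.8 in epiblast (6 lower than in ICM) and 67.8 to 83.8 in ICM. That of 8 mitosis genes was 132 to 244 in diapaused ICM (5 lower than in ICM), 593 and 539 in epiblast (1 higher) and 386 to 431 in ICM. The sum of 8 trophectoderm markers reached 177 in diapaused ICM replicate 3, with Krt18 at 121 and Krt8 at 17.6. It was 43.4 and 48.1 in the other 2 diapaused libraries, 57.0 and 66.0 in epiblast and 33.1 to 54.4 in ICM. Cdx2, Elf5 and Eomes in replicate 3 lay within their ICM ranges. Of the 7 tested, 1 was higher in diapaused ICM than in ICM (Gata3, 1.95 ± 0.37, adjusted p = 0.00943 by limma) and 0 lower. Visceral endoderm markers summed to 7.13 to 11.7 in diapaused ICM, 20.1 and 63.6 in epiblast and 1.82 to 3.08 in ICM, but they differed in direction. Of 4 tested, 1 was higher in diapaused ICM than in epiblast (Cubn) and 3 lower (Apoa1, Apob and Ttr). Ttr was at 6.33 and 39.7 in epiblast. Blood and immune markers summed to 47.4 to 134 in diapaused ICM through Cd68 and Laptm5, against 2.31 and 4.01 in epiblast and 4.99 to 10 in ICM. Ptprc, Tyrobp and Fcer1g did not exceed 0.554 in any library. Fewer cells of a type and less RNA per cell cannot be told apart in these pools, and the part of these cell types in the results below was not tested.

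In diapaused ICM against ICM, 5 genes were higher and 2 lower of the 61 tested (11.5%), where 13.3% of all 17698 tested genes were called. Smyd2, Whsc1, Kmt2b, Setd7 and Setd6 rose and Dpy30 and Prmt1 fell. In epiblast against ICM 5 were higher and 10 lower (24.6%, against 30.1% of all genes), and in diapaused ICM against epiblast 17 were higher and 7 lower (39.3%, against 34.5%). A call is an adjusted p under 0.05 in limma's test on log2(value + 1). Fold changes are on that scale with their standard error, and they understate the change of genes at low levels. Genes higher made up 7.52%, 16.7% and 16% of all tested genes in these 3 comparisons, taken in the same order, and genes lower 5.81%, 13.3% and 18.6%. The counts below for residue groups and partner lists rest on few genes each and are to be read beside these shares. The median change of the 61 genes was 0.00 in diapaused ICM against ICM (all genes 0.00), -0.26 in epiblast against ICM (all genes 0.14) and 0.23 in diapaused ICM against epiblast (all genes -0.11). The first 2 comparisons share the ICM libraries and the last reuses the other libraries of both, so the 3 are not independent. Rescaling without the 100 most abundant genes moved the median of all genes in epiblast against ICM by -0.14 to 0.00 and that of the 61 to -0.41. Among members the same rescaling left 2 higher and 4 lower in diapaused ICM against ICM, which turned the balance, and 3 higher and 11 lower in epiblast against ICM. In diapaused ICM against ICM it turned the split of all calls from 1331 higher and 1029 lower to 1105 and 1302. In epiblast against ICM it turned that split from 2963 and 2361 to 1996 and 2705. In all, 30 genes were called in at least 1 comparison. The calls that held in every alternative able to test them were Smyd2 in diapaused ICM against ICM, Setd7, Kmt2c and Prmt8 in epiblast against ICM, and Kmt2c and Prmt8 in diapaused ICM against epiblast. The calls of Prmt8 had fewer tests, since it passed the filter only through the epiblast group, where it was high, and could not be tested without an epiblast library.

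**Figure D1:**
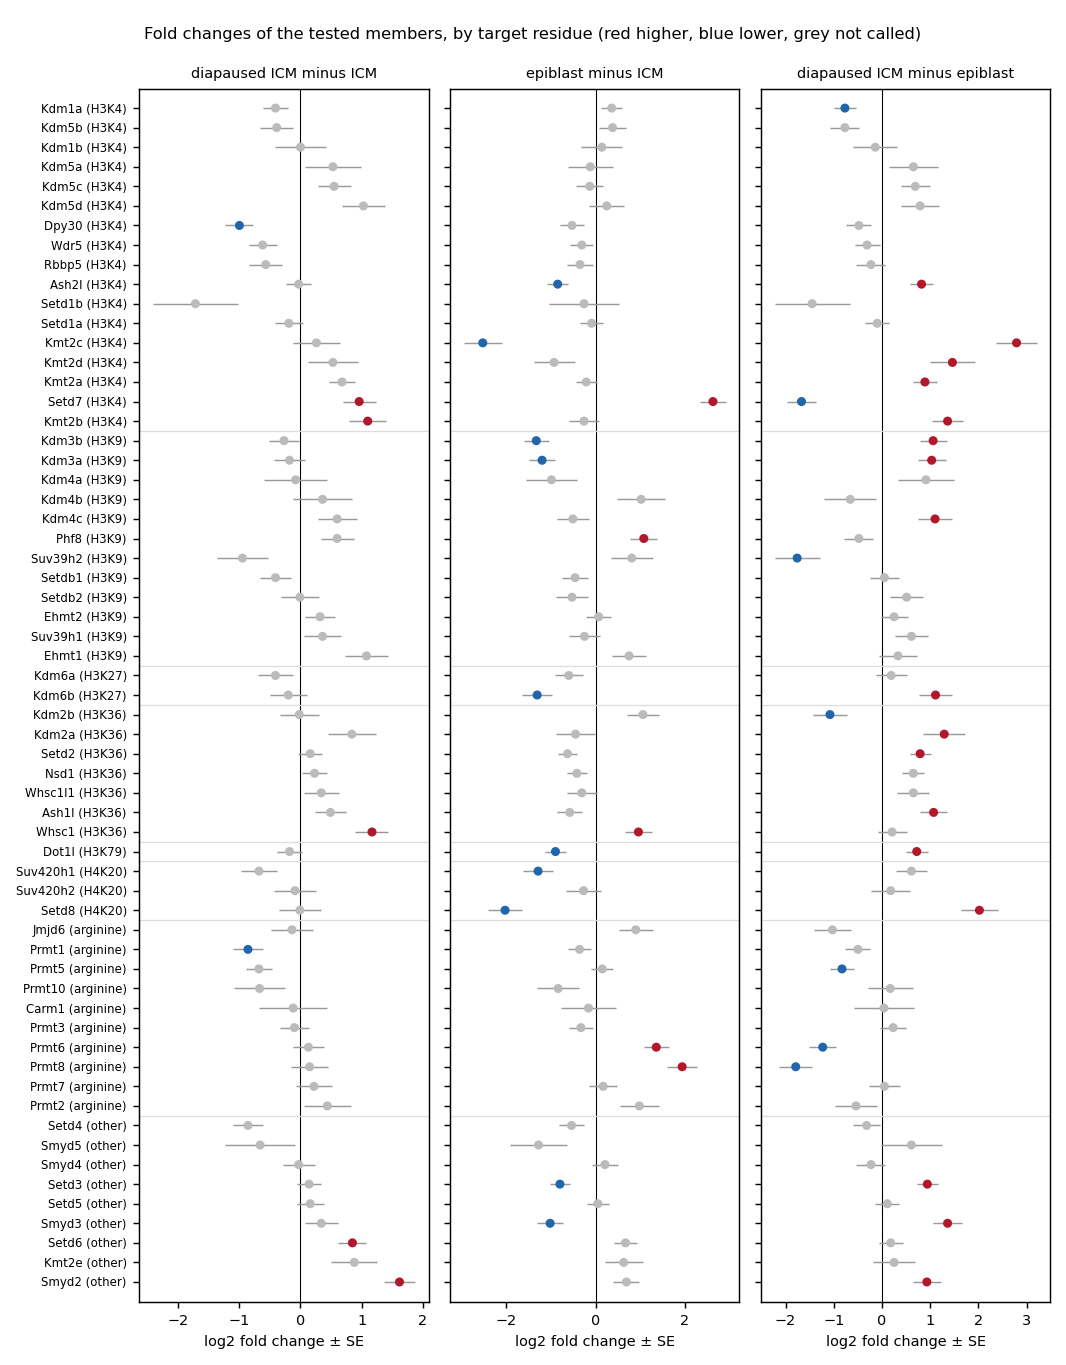
Log2 fold changes with standard errors of the 61 tested genes, by target residue, in diapaused ICM minus ICM, epiblast minus ICM and diapaused ICM minus epiblast. Red marks genes called higher, blue lower and grey not called. The left panel has 7 coloured points, the middle panel 15 and the right panel 24, and Kmt2c and Setd7 lie farthest from 0 in the middle panel.

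The promoters of 3 genes with at least 1 call that held in every alternative able to test it, and with a single start in the RefSeq table (51 of the 67 genes have an entry), are given to show the sequences in front of those changes: Smyd2 in diapaused ICM against ICM, Setd7 in epiblast against ICM, and Kmt2c in epiblast against ICM and in diapaused ICM against epiblast. Each spans 250 bases before to 50 after the start in GRCm38.p6, written 5′ to 3′ along the gene: Kmt2c at chr5:25498734-25499033 (minus strand), Setd7 at chr3:51560774-51561073 (minus strand) and Smyd2 at chr1:189922242-189922541 (minus strand). Capitals mark matches on either strand to any of the motifs searched.
Kmt2c: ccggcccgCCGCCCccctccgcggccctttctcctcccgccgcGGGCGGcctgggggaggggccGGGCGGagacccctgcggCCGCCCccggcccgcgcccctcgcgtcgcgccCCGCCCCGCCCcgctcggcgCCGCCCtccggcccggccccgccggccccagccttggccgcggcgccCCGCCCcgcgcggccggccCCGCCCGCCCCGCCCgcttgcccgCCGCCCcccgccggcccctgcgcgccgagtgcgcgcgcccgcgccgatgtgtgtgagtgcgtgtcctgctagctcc
Setd7: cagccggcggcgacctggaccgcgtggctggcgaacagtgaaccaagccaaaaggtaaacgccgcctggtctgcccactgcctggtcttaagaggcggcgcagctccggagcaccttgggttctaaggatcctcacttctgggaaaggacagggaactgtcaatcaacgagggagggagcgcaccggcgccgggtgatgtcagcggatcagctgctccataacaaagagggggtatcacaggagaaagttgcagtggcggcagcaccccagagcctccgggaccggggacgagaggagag
Smyd2: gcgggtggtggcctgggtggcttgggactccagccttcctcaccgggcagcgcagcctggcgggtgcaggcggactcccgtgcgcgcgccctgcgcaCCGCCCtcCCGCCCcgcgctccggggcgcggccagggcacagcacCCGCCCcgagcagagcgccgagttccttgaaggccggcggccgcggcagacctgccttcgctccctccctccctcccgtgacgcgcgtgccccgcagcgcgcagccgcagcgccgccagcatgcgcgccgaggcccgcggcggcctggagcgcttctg
The Kmt2c promoter was 88.0% G and C and held the GC box GGGCGG 12 times, with matches that can overlap. The Smyd2 promoter was 79% G and C and held it 3 times, and the Setd7 promoter, at 62.7%, held no match to any motif. The E-box CACGTG, the FOXO site GTAAACA, the E2F sites TTTCCCGC and TTTGGCGC and CCAAT were found in none of the 3. Of 32851 promoters of this length in the table, 35.7% held the GC box, 7.15% the E-box, 3.65% the FOXO site, 1.07% and 0.514% the E2F sites in the order above, and 37.4% CCAAT.

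**Figure D2:**
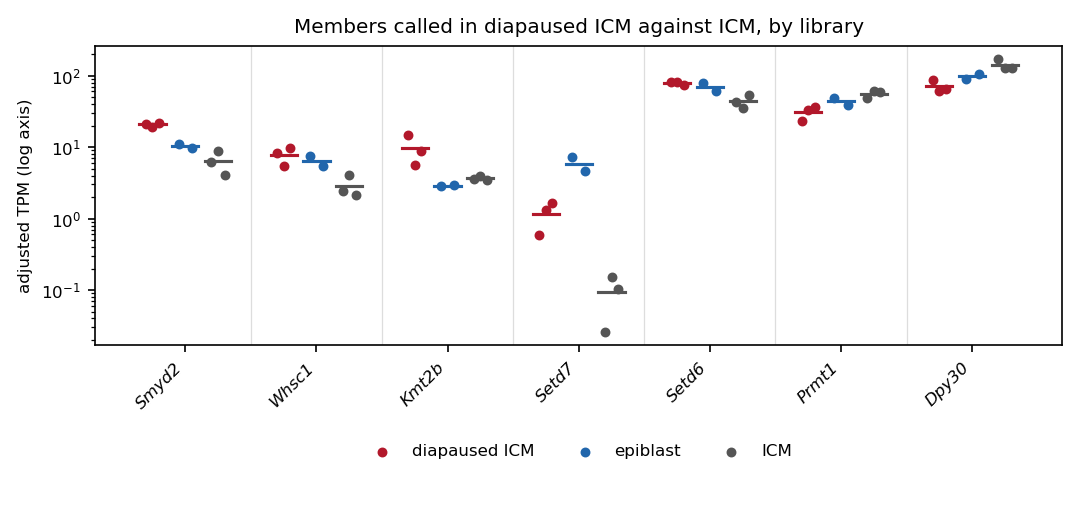
Adjusted TPM (log axis) of the 7 genes called in diapaused ICM against ICM, each point a library and each bar a group mean. The diapaused ICM points lie above all ICM points for Smyd2, Whsc1, Kmt2b, Setd7 and Setd6 and below them for Prmt1 and Dpy30, and Setd7 is highest in epiblast.

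Among 7 genes for H3K4 methyltransferases, 2 rose and 0 fell in diapaused ICM relative to ICM (28.6%, against 13.3% of all tested genes called). Their median change was 0.53. Under quantile normalization and after rescaling without the 100 most abundant genes, 0 of the 7 were higher and 0 lower, with medians of 0.47 and 0.4. Kmt2b (ENSMUSG00000006307), which encodes an MLL-family enzyme that trimethylates H3K4 at promoters, was at 14.6, 5.55 and 8.76 in diapaused ICM, 2.82 and 2.98 in epiblast and 3.59, 3.89 and 3.51 in ICM. Its lowest diapaused library stood above all 5 others, with a rise of 1.10 ± 0.30 over ICM (adjusted p = 0.0409) and 1.36 ± 0.33 over epiblast (adjusted p = 0.014). Its relative Kmt2a, which acts with the same partner menin, was at 5.70, 6.00 and 9.12 in diapaused ICM, 3.42 and 3.02 in epiblast and 3.51, 3.79 and 4.35 in ICM. For Kmt2a the groups did not overlap either, but only the difference from epiblast was called (0.89 ± 0.24, adjusted p = 0.0223), not that from ICM (0.68 ± 0.22, adjusted p = 0.0763). Men1, the gene for menin and the H3K4 partner with the smallest adjusted p in diapaused ICM against ICM, was at 29.8, 49.1 and 22.2 in diapaused ICM, 10.3 and 11.3 in epiblast and 7.16, 15.0 and 12.7 in ICM. It rose by 1.44 ± 0.34 over ICM (adjusted p = 0.0251) and 1.49 ± 0.38 over epiblast (adjusted p = 0.0173). The Kmt2b call against ICM was lost in 12 of 15 alternatives, among the leave-out fits all but the one without diapaused ICM replicate 2 (adjusted p 0.0614 to 0.109). That of Men1 was lost without ICM replicates 1 or 3 (0.0833 and 0.0561) or diapaused ICM replicates 1 or 2 (0.0542 and 0.068). The Men1 call was also lost with no filter on low values and with only the groups compared, where 0 of 8 H3K4 partners were higher. Against epiblast, leaving out epiblast replicate 1 or 2 ended the calls of Kmt2b (0.0817 and 0.0657), Kmt2a (0.0858 and 0.121) and Men1 (0.0988 and 0.0736).

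Kmt2c, for an enhancer H3K4 monomethyltransferase of the MLL3/4 branch, was low in epiblast alone. Kmt2c (ENSMUSG00000038056) was at 17.1, 23.5 and 42.8 in diapaused ICM, 2.77 and 3.0 in epiblast and 16.2, 35.2 and 17.2 in ICM. Both epiblast libraries stood far below the 6 others, a difference of -2.53 ± 0.43 from ICM (adjusted p = 0.00312). Diapaused ICM was 2.79 ± 0.43 above epiblast (adjusted p = 0.00162), while diapaused ICM and ICM overlapped (0.26 ± 0.38, adjusted p = 0.731). These calls held in all 15 alternatives. Its paralog Kmt2d spread widely in the blastocyst groups, at 21.6, 8.21 and 11.5 in diapaused ICM, 4.48 and 3.57 in epiblast and 5.22, 14.8 and 7.79 in ICM. It was called only in diapaused ICM against epiblast (1.46 ± 0.46, adjusted p = 0.036). The Kmt2d call was lost without any library other than diapaused ICM replicate 2 and ICM replicates 1 and 2 (0.0505 to 0.163). A partner of this branch, Paxip1, was at 4.89, 4.24 and 4.07 in diapaused ICM, 1.85 and 1.87 in epiblast and 4.36, 6.76 and 6.41 in ICM. The difference of epiblast from ICM was -1.24 ± 0.23 (adjusted p = 0.00511). Genes of the remaining general H3K4 trimethylating enzymes were not called. Setd1a stayed between 4.61 and 7.84 in all 8 libraries. Setd1b varied within groups, at 3.57, 2.08 and 5.87 in diapaused ICM, 22.3 and 5.80 in epiblast and 25.2, 25.5 and 3.96 in ICM. ICM replicate 3 stood apart from the other ICM libraries for Setd1b: the change of -1.72 ± 0.70 (adjusted p = 0.149) became -2.52 and passed the threshold without it (adjusted p = 0.0265).

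Setd7 (ENSMUSG00000037111), for a monomethyltransferase of H3K4 that also acts on many non-histone proteins, was low in the blastocyst and highest in epiblast. Its level was 0.582, 1.31 and 1.64 in diapaused ICM, 7.21 and 4.56 in epiblast and 0.0261, 0.152 and 0.104 in ICM, with no overlap between any 2 groups. Epiblast was 2.63 ± 0.30 above ICM (adjusted p = 0.000461) and diapaused ICM 0.96 ± 0.27 above ICM (adjusted p = 0.049). The difference of diapaused ICM from epiblast was -1.67 ± 0.30 (adjusted p = 0.00385). The rise in diapaused ICM was lost in 12 of 14 alternatives, among the leave-out fits all but the one without diapaused ICM replicate 1 (0.0756 to 0.131). The difference from epiblast was lost without epiblast replicate 1 (0.0643).

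**Figure D3:**
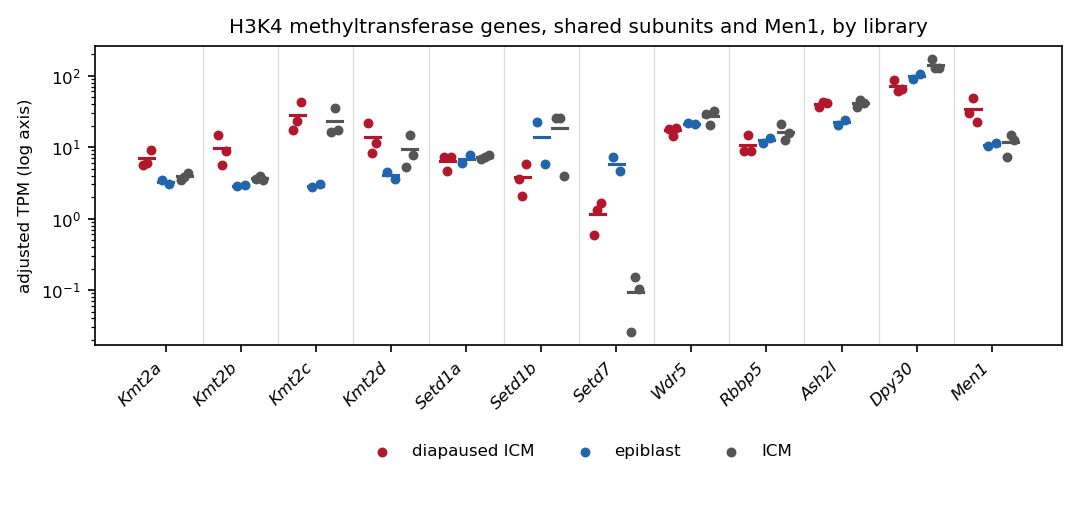
Adjusted TPM (log axis) of the 7 H3K4 methyltransferase genes, the 4 shared subunits and Men1, each point a library and each bar a group mean. The 2 epiblast points of Kmt2c lie at 3.0 or less and all 6 others at 16.2 or more, Setd7 is highest in epiblast, and the Setd1b points spread within the epiblast and ICM groups.

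Of the 4 subunits shared by these enzymes, 0 rose and 1 fell in diapaused ICM relative to ICM, and all 4 changes were below 0, with a median of -0.60. Dpy30 (ENSMUSG00000024067), the core subunit with the highest mean level among the H3K4 writers, shared subunits and erasers here, was at 85.5, 61.9 and 64.0 in diapaused ICM, 89.6 and 106 in epiblast and 170.1, 128 and 129 in ICM. It was lower in diapaused ICM than in ICM with no overlap (-1.0 ± 0.23, adjusted p = 0.0215), and epiblast lay between the 2 ICM groups. The Dpy30 call was lost without ICM replicate 1 (0.0826) or diapaused ICM replicates 2 or 3 (0.0692 and 0.0602). The WD-repeat subunit gene Wdr5 was at 14.5 to 18.8 in diapaused ICM, 21.7 and 21 in epiblast and 20.3 to 32.2 in ICM (-0.62 ± 0.23, adjusted p = 0.123). Rbbp5, for a subunit that contacts the nucleosome, was at 8.72 to 14.6 in diapaused ICM, 11.5 and 13.4 in epiblast and 12.5 to 21.2 in ICM, without a call. Ash2l, for the subunit that binds DPY30, was lower in epiblast: 35.9, 42.8 and 41.4 in diapaused ICM, 20.4 and 24.2 in epiblast and 36.1, 45.9 and 41.2 in ICM. The difference was -0.85 ± 0.23 for epiblast against ICM (adjusted p = 0.0228) and 0.82 ± 0.23 for diapaused ICM against epiblast (adjusted p = 0.0236). Ash2l lost its calls without epiblast replicate 1 (0.165 against ICM and 0.16 for diapaused ICM against epiblast) or 2 (0.0736 and 0.0734). They were also lost without ICM replicate 3 (0.0519, epiblast against ICM) and without diapaused ICM replicates 2 or 3 (0.0568 and 0.0526, diapaused ICM against epiblast).

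Of 8 H3K4 complex partners, 1 rose and 0 fell in diapaused ICM relative to ICM, 1 was higher and 2 lower in epiblast than in ICM, and 2 higher and 1 lower in diapaused ICM relative to epiblast. Psip1, for the chromatin reader LEDGF that tethers menin and MLL enzymes, was at 141, 81.8 and 89.1 in diapaused ICM, 462 and 526 in epiblast and 89.8, 74.4 and 129 in ICM. Epiblast was 2.36 ± 0.32 above ICM (adjusted p = 0.00109), and diapaused ICM overlapped ICM. Without either epiblast library the 2 partners higher in diapaused ICM relative to epiblast became 0, against 3 without diapaused ICM replicate 2. The 2 lower in epiblast than in ICM became 1 without any 1 ICM or epiblast library, and 1 was lower in diapaused ICM relative to ICM without diapaused ICM replicate 3.

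The H3K4 demethylase genes gave 0 calls of 6 in diapaused ICM against ICM and in epiblast against ICM by limma. Kdm1a, for the flavin-dependent enzyme LSD1, was at 17.2 to 23.0 in diapaused ICM, 34.6 and 32.1 in epiblast and 22.8 to 27.6 in ICM. It was lower in diapaused ICM than in epiblast (-0.77 ± 0.23, adjusted p = 0.0316). This call was lost without diapaused ICM replicates 1 or 2 (0.0766 and 0.0733) or epiblast replicates 1 or 2 (0.16 and 0.114). At an unadjusted p under 0.05 stood 1 of the 6 in diapaused ICM against ICM, Kdm5d, and 0 in epiblast against ICM. Kdm5d, the Y-linked member of the JmjC family that removes H3K4 trimethylation, was at 1.74, 4.14 and 2.21 in diapaused ICM, 1.25 and 0.897 in epiblast and 0.233, 1.72 and 0.574 in ICM (1.03 ± 0.35, adjusted p = 0.0918, or 0.0357 without ICM replicate 2). Of its relatives, Kdm5a ranged from 32.1 to 83.3 in diapaused ICM, 29.6 to 30.2 in epiblast and 16.3 to 46.9 in ICM. Kdm5b lay between 7.84 and 22.0, and the X-linked Kdm5c between 3.70 and 10.6 over all libraries. Kdm5b was not called, but it passed as lower in diapaused ICM than in epiblast under quantile normalization (adjusted p = 0.0283), with a replicate block (0.0276) and without diapaused ICM replicate 3 (0.0334). Kdm1b, for the second LSD enzyme, known from growing mouse oocytes, was at 1.68 or less everywhere. Among 7 partners of LSD1, 0 were called in diapaused ICM against ICM by limma (3 at an unadjusted p under 0.05), 2 were higher and 1 lower in epiblast against ICM, and 2 were higher and 2 lower in diapaused ICM against epiblast. Without epiblast replicate 1 these became 0 and 0 in epiblast against ICM, and 0 higher and 2 lower in diapaused ICM against epiblast. Without epiblast replicate 2 they became 0 higher and 1 lower, and 0 higher and 2 lower. The 1 lower in epiblast against ICM was also lost without ICM replicates 1 or 3. The 2 higher in diapaused ICM against epiblast became 1 without ICM replicate 1 or diapaused ICM replicate 1, and 0 without diapaused ICM replicate 3. In diapaused ICM against ICM 1 was higher without ICM replicate 2 or diapaused ICM replicate 1.

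The 6 genes for H3K9 methyltransferases gave 0 calls in diapaused ICM against ICM and in epiblast against ICM by limma (1 and 0 at an unadjusted p under 0.05, in that order). Of all tested genes, 13.3% and 30.1% were called there. In diapaused ICM against epiblast 1 of the 6 was lower (16.7%, against 34.5% of all tested genes called). Whether these genes differ from those for readers of the mark was not tested. Ehmt2, for the euchromatic dimethyltransferase G9a and the H3K9 gene with the highest mean level, was at 17.4, 11.1 and 14.9 in diapaused ICM, 12.3 and 11.4 in epiblast and 13.2, 8.46 and 12.5 in ICM. Those ranges overlapped in every pair of groups. Its partner gene Ehmt1 (GLP) was at 10.1, 8.05 and 17.4 in diapaused ICM, 11.0 and 6.98 in epiblast and 3.96, 7.78 and 3.51 in ICM. Its change of 1.08 ± 0.35 in diapaused ICM against ICM did not pass (adjusted p = 0.0798, or 0.0375 without ICM replicate 2). Suv39h2, for a writer of pericentromeric H3K9 trimethylation, was at 0.974, 3.19 and 6.64 in diapaused ICM, 11.8 and 13.3 in epiblast and 6.08, 6.04 and 8.24 in ICM. Diapaused ICM was lower than epiblast for Suv39h2 (-1.76 ± 0.47, adjusted p = 0.0205; 0.0855 and 0.102 without epiblast replicate 1 or 2). Against ICM the Suv39h2 change was -0.95 ± 0.42 (adjusted p = 0.185), and -1.42 without diapaused ICM replicate 3 (adjusted p = 0.0367). The paralog Suv39h1 was at 3.14 to 9.88. Setdb1, the gene of the enzyme that trimethylates H3K9 at silenced retroelements, was at 5.12 to 10.7, and Setdb2 was at 0.626 to 2.76.

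Of 9 partners and readers of H3K9 methylation in the file, 0 rose and 2 fell in diapaused ICM relative to ICM, 6 were higher and 1 lower in epiblast than in ICM, and 0 higher and 6 lower in diapaused ICM relative to epiblast. Cbx3, for the heterochromatin protein HP1 gamma, was at 88.3, 72.2 and 111 in diapaused ICM, 405 and 319.8 in epiblast and 204, 174 and 162 in ICM. The 3 groups did not overlap. Diapaused ICM was lower than ICM (-1.0 ± 0.23, adjusted p = 0.0235), and epiblast was higher than ICM (1.0 ± 0.26, adjusted p = 0.0205). Diapaused ICM was lower than epiblast (-2.0 ± 0.26, adjusted p = 0.000715). Cbx1, for HP1 beta, was at 13.5, 15.1 and 13.6 in diapaused ICM, 109 and 69.9 in epiblast and 25, 18.4 and 40.5 in ICM. Its change in diapaused ICM against ICM did not pass (-0.87 ± 0.31, adjusted p = 0.101, or 0.044 without ICM replicate 2). Epiblast was above ICM (1.68 ± 0.34, adjusted p = 0.00735) and diapaused ICM below epiblast (-2.55 ± 0.34, adjusted p = 0.000826). Trim28, for the corepressor KAP1 that recruits SETDB1, was at 197, 187 and 225 in diapaused ICM, 184 and 196 in epiblast and 387, 376 and 319.6 in ICM. It fell in both groups relative to ICM (-0.83 ± 0.19, adjusted p = 0.0243 in diapaused ICM, and -0.92 ± 0.22, adjusted p = 0.0138 in epiblast). Pphln1, for a subunit of the HUSH silencing complex, was at 15.2, 19.1 and 23.8 in diapaused ICM, 78.9 and 81.8 in epiblast and 25.1, 18.2 and 32.1 in ICM (epiblast against ICM 1.67 ± 0.30, adjusted p = 0.00378). The other 3 higher in epiblast than in ICM, named after their values were seen, were the HUSH gene Mphosph8 (2.03 ± 0.44), Cbx5 for HP1 alpha (0.96 ± 0.26) and Atf7ip, for a stabilizing partner of SETDB1 (0.82 ± 0.25). Leaving out 1 library ended the diapaused ICM calls of Cbx3 and Trim28 against ICM without ICM replicate 1 (0.0877 and 0.0897) or diapaused ICM replicates 1 (0.0631 and 0.0718) or 2 (0.0763 and 0.0773). In epiblast against ICM it ended those of Cbx3 without ICM replicate 3 (0.0566) or epiblast replicates 1 or 2 (0.157 and 0.057), Trim28 without epiblast replicates 1 or 2 (0.102 and 0.0661) and Cbx1 without epiblast replicate 1 (0.0802). Mphosph8 lost its call without epiblast replicates 1 or 2 (0.0691 and 0.0504). Cbx5 lost it without either of them (0.113 and 0.125) or ICM replicates 1 or 2 (0.0689 and 0.0505), and Atf7ip without any epiblast or ICM library (0.0529 to 0.195). The 6 genes higher in epiblast than in ICM became 1 without epiblast replicate 1, 2 without epiblast replicate 2, 4 without any 1 ICM library and 3 after rescaling, and the 1 lower became 0 without either epiblast library.

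**Figure D4:**
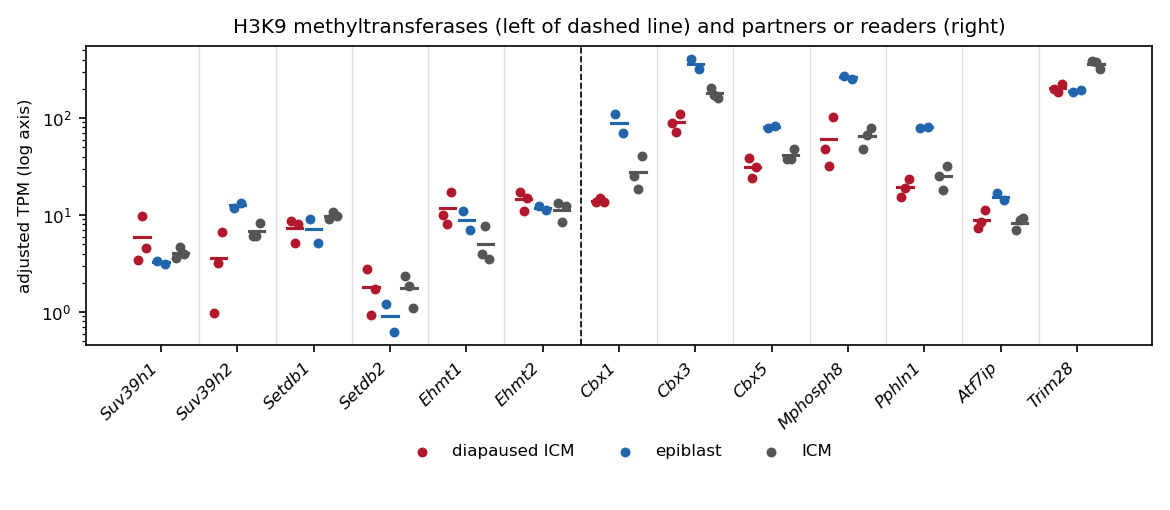
Adjusted TPM (log axis) of the 6 H3K9 methyltransferase genes, left of the dashed line, and of 7 of the 9 tested genes for partners or readers of the mark, right of it. These 7 are the ones called in epiblast against ICM. Cdyl and Wiz, called in no comparison, are not shown. Each point is a library and each bar a group mean. Most methyltransferase points of the 3 groups overlap, but the epiblast points of Suv39h2 lie above all others. The epiblast points of Cbx1, Cbx3, Cbx5, Mphosph8, Pphln1 and Atf7ip also lie above all others, and the ICM points of Trim28 lie above those of both other groups.

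For the H3K9 demethylases, 6 of 8 genes were tested. Of these, 0 were called in diapaused ICM against ICM by limma (0 at an unadjusted p under 0.05). In the other comparisons, 1 was higher and 2 lower in epiblast than in ICM, and 3 were higher and 0 lower in diapaused ICM relative to epiblast. Kdm3b (ENSMUSG00000038773), for a JmjC enzyme acting on mono- and dimethylated H3K9, was at 13.7, 7.53 and 11.4 in diapaused ICM, 4.42 and 4.72 in epiblast and 11.9, 16 and 11.4 in ICM. Its paralog Kdm3a was at 3.78, 5.18 and 3.16 in diapaused ICM, 1.46 and 1.41 in epiblast and 2.99, 5.75 and 5.57 in ICM. Both were low in epiblast alone, by -1.33 ± 0.28 for Kdm3b (adjusted p = 0.00888) and -1.20 ± 0.29 for Kdm3a (adjusted p = 0.0155) relative to ICM. Diapaused ICM was above epiblast by 1.06 ± 0.28 for Kdm3b (adjusted p = 0.0199) and 1.03 ± 0.29 for Kdm3a (adjusted p = 0.0257). Phf8, for an X-linked demethylase of H3K9 and H4K20, was at 7.17 to 12.8 in diapaused ICM, 17.7 and 11.5 in epiblast and 5.62 to 7.53 in ICM (epiblast against ICM 1.08 ± 0.30, adjusted p = 0.0258). In the Kdm4 family, whose enzymes remove trimethylation from H3K9 and H3K36, Kdm4c was higher in diapaused ICM (6.86 to 14.1) than in epiblast (5.05 and 4.09; 1.10 ± 0.36, adjusted p = 0.0427), with 4.79 to 10 in ICM. Kdm4a (1.89 to 16.1) and Kdm4b (1.18 to 7.33) were not called, and diapaused ICM replicate 1 stood apart for Kdm4a (16.1) and diapaused ICM replicate 2 for Kdm4b (7.33). Without the second of these libraries Kdm4b was higher in epiblast than in ICM (adjusted p = 0.0374) and lower in diapaused ICM than in epiblast (-1.28, adjusted p = 0.0238). Kdm4d stayed at 0.00716 or less in every library and Phf2 ranged from 0.231 to 1.45, so these were not tested. Kdm4dl, which was assigned to no residue group, stayed at 0.00565 or less and was not tested either. Against ICM, the epiblast calls were lost without epiblast replicate 1 for Kdm3b (0.0703), without either epiblast library for Kdm3a (0.0867 and 0.08) and without epiblast replicate 1 or ICM replicates 1 or 3 for Phf8 (0.197, 0.0703 and 0.0671). In diapaused ICM against epiblast they were lost without either epiblast library for Kdm3b (0.109 and 0.0846), Kdm3a (0.11 and 0.113) and Kdm4c (0.119 and 0.19). They were also lost without diapaused ICM replicate 1 for Kdm3b (0.0509) and Kdm4c (0.103), replicate 2 for Kdm3a (0.0646), replicate 3 for Kdm3b (0.0503) and Kdm4c (0.108), and without ICM replicate 1 for Kdm4c (0.0619).

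The 2 H3K27 demethylase genes oppose the Polycomb mark. Kdm6b (JMJD3; ENSMUSG00000018476) was at 14.5, 15.2 and 16.1 in diapaused ICM, 10.1 and 4.11 in epiblast and 21.4, 13.9 and 18.5 in ICM. Epiblast was lower than ICM (-1.31 ± 0.34, adjusted p = 0.02), and diapaused ICM was higher than epiblast (1.11 ± 0.34, adjusted p = 0.0335). Without epiblast replicate 2, the lower one, these became -0.75 (adjusted p = 0.164) and 0.55 (adjusted p = 0.276). The epiblast against ICM call of Kdm6b was also lost without ICM replicates 1 or 3 (0.0607 and 0.0508), and that of diapaused ICM against epiblast without any of the diapaused libraries (0.0579 to 0.0765). The X-linked Kdm6a (UTX) was at 4.20 to 9.32 in diapaused ICM, 5.06 and 6.57 in epiblast and 7.55 to 10.4 in ICM, without a call. Of the 4 genes for the core of the opposing methyltransferase, PRC2, 0 rose and 1 fell in diapaused ICM relative to ICM, 0 were higher and 1 lower in epiblast than in ICM, and 1 higher and 1 lower in diapaused ICM relative to epiblast. The gene lower in both was Suz12, named after its values were seen, at 26.3, 28.5 and 41.9 in diapaused ICM, 27.5 and 18.7 in epiblast and 64.8, 53.5 and 80.2 in ICM. Its change was -1.02 ± 0.27 in diapaused ICM (adjusted p = 0.0379) and -1.49 ± 0.30 in epiblast (adjusted p = 0.00731). The Suz12 call in diapaused ICM was lost without ICM replicates 1 or 3 (0.101 and 0.115) or diapaused ICM replicates 1 or 2 (0.109 and 0.105), and that in epiblast without epiblast replicate 2 (0.0699). The diapaused ICM call of Suz12 was also lost with no filter on low values and with only the groups compared, where 0 of the 4 genes were lower. Without ICM replicate 2, 2 of the 4 genes were lower in diapaused ICM against ICM and 2 in epiblast against ICM. In diapaused ICM against epiblast the 1 higher was lost without epiblast replicate 2 and the 1 lower without either epiblast library.

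Among H3K36 methyltransferases, 1 of 5 genes rose and 0 fell in diapaused ICM relative to ICM (20.0%, against 13.3% of all tested genes called). All 5 changes were above 0 (median 0.34). Whsc1 (ENSMUSG00000057406, now Nsd2), for a dimethyltransferase of H3K36, was at 8.23, 5.39 and 9.57 in diapaused ICM, 7.46 and 5.49 in epiblast and 2.47, 4.01 and 2.16 in ICM. It was higher than ICM in both other groups, by 1.17 ± 0.27 in diapaused ICM (adjusted p = 0.0231) and 0.96 ± 0.30 in epiblast (adjusted p = 0.0415), which overlapped each other. The diapaused ICM call of Whsc1 was lost without ICM replicates 1 or 3 (0.0801 and 0.0759) or diapaused ICM replicates 1 or 3 (0.064 and 0.0691). It was lost too with no filter on low values and with a replicate block, where the 1 member higher was Smyd2. The same Whsc1 call was also lost after rescaling, where 0 of the 5 genes were higher. Its epiblast call was lost in 9 of 15 alternatives, among them rescaling (0.12) and the fits without ICM replicates 1 or 3 (0.103 and 0.109), diapaused ICM replicate 1 (0.051) or either epiblast library (0.233 and 0.0863). Setd2 (ENSMUSG00000044791), for the enzyme behind most H3K36 trimethylation and the H3K36 gene with the highest mean level, was at 33.9, 35.5 and 37.7 in diapaused ICM, 21.8 and 18.6 in epiblast and 28.6, 35.1 and 31.9 in ICM. Epiblast lay below both blastocyst groups: diapaused ICM was 0.79 ± 0.22 above epiblast (adjusted p = 0.0222), and epiblast against ICM gave -0.63 ± 0.22 (adjusted p = 0.0565), which passed under rescaling (-0.82, adjusted p = 0.0393). Ash1l, for an activating H3K36 dimethyltransferase, was at 7.83, 4.0 and 5.09 in diapaused ICM, 2.01 and 2.14 in epiblast and 3.84, 2.79 and 4.34 in ICM. It was called in diapaused ICM against epiblast (1.07 ± 0.28, adjusted p = 0.0196). Nsd1 (12.7 to 25.3) and Whsc1l1, now Nsd3 (2.52 to 8.63), which encode the other NSD enzymes, were not called, although Nsd1 passed in diapaused ICM against epiblast without diapaused ICM replicate 2 (adjusted p = 0.0491, against 0.0546). Calls in diapaused ICM against epiblast were lost without epiblast replicates 1 or 2 for Setd2 (0.0796 and 0.15) and Ash1l (0.103 and 0.0827), and for Setd2 without diapaused ICM replicate 3 (0.0516).

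The H3K36 demethylase genes Kdm2a and Kdm2b, whose products bind CpG islands, differed from each other in direction between diapaused ICM and epiblast. Kdm2a was at 57.4, 24.9 and 48.0 in diapaused ICM, 13.7 and 19.0 in epiblast and 36, 15.3 and 20.3 in ICM. Kdm2b, whose product recruits a Polycomb complex, was at 7.96, 3.69 and 6.19 in diapaused ICM, 18.7 and 9.21 in epiblast and 5.92, 5.08 and 6.51 in ICM. Diapaused ICM was higher than epiblast for Kdm2a (1.29 ± 0.43, adjusted p = 0.0462) and lower for Kdm2b (-1.08 ± 0.35, adjusted p = 0.0426). Neither was called against ICM, with Kdm2b in epiblast at 1.06 ± 0.35 (adjusted p = 0.0503, and 0.0343 to 0.0447 without diapaused ICM replicates 1 or 2 or epiblast replicate 2). The call of Kdm2a was lost in 5 fits without 1 library, those without diapaused ICM replicates 1 or 3, ICM replicate 3 or either epiblast library (0.0626 to 0.226). That of Kdm2b was lost in 6, all but those without diapaused ICM replicate 1 or epiblast replicate 2 (0.0508 to 0.309). Kdm8, listed with this mark, ranged from 0.000644 to 0.959 and was not tested.

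Dot1l (ENSMUSG00000061589), the H3K79 methyltransferase gene, was at 5.54, 5.86 and 7.89 in diapaused ICM, 3.84 and 3.15 in epiblast and 7.43, 6.81 and 7.86 in ICM. Both epiblast libraries lay below the rest. Epiblast was lower than ICM (-0.90 ± 0.23, adjusted p = 0.0178) and diapaused ICM higher than epiblast (0.72 ± 0.23, adjusted p = 0.0374). Without epiblast replicate 1 or 2 the first was lost (0.0708 and 0.118), and the second in 5 of 8 such fits, those without either epiblast library, diapaused ICM replicates 2 or 3 or ICM replicate 1 (0.0531 to 0.197). Of 4 DOT1L partners, 0 were called in diapaused ICM against ICM by limma (1 at an unadjusted p under 0.05), 0 were higher and 1 lower in epiblast against ICM, and 1 was higher and 0 lower in diapaused ICM against epiblast. The 1 lower became 0 without epiblast replicate 1, and without diapaused ICM replicate 2 there was 1 higher in diapaused ICM against ICM and 2 higher in diapaused ICM against epiblast.

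The H4K20 methyltransferase gene Setd8 (ENSMUSG00000049327, now Kmt5a) had the highest level of the 67 genes. SETD8 adds the first methyl group, which accumulates in mitosis, and the SUV420H enzymes add the next. Setd8 was at 542, 691 and 693 in diapaused ICM, 127 and 193 in epiblast and 469.9, 1114 and 504 in ICM. Both epiblast libraries lay below all others, with epiblast lower than ICM (-2.03 ± 0.39, adjusted p = 0.00553) and diapaused ICM higher than epiblast (2.02 ± 0.39, adjusted p = 0.00485). Diapaused ICM and ICM overlapped (-0.01 ± 0.35). The summed level of the 67 genes, with Setd8 the highest of them in every library, was 1459 to 1658 in diapaused ICM, 934 and 948 in epiblast and 1413 to 1988 in ICM. The 3 H4K20 genes alone summed to 556 to 717 in diapaused ICM, 139 and 207 in epiblast and 507 to 1140.4 in ICM. The sum of all 67 therefore does not describe the other genes. Suv420h1 (now Kmt5b) was at 10.6, 22.9 and 17.9 in diapaused ICM, 9.59 and 11.1 in epiblast and 34.5, 22.9 and 24.2 in ICM. It was lower in epiblast than in ICM (-1.29 ± 0.33, adjusted p = 0.02) and, without diapaused ICM replicate 1, than in diapaused ICM (diapaused ICM against epiblast 0.91, adjusted p = 0.0498). Suv420h2 (now Kmt5c) was at 2.22 to 5.90 and was not called. Without epiblast replicate 1 the Setd8 calls were lost (0.0612 against ICM and 0.051 for diapaused ICM against epiblast), and that of Suv420h1 without epiblast replicates 1 or 2 (0.125 and 0.0756) or ICM replicate 1 (0.0609).

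**Figure D5:**
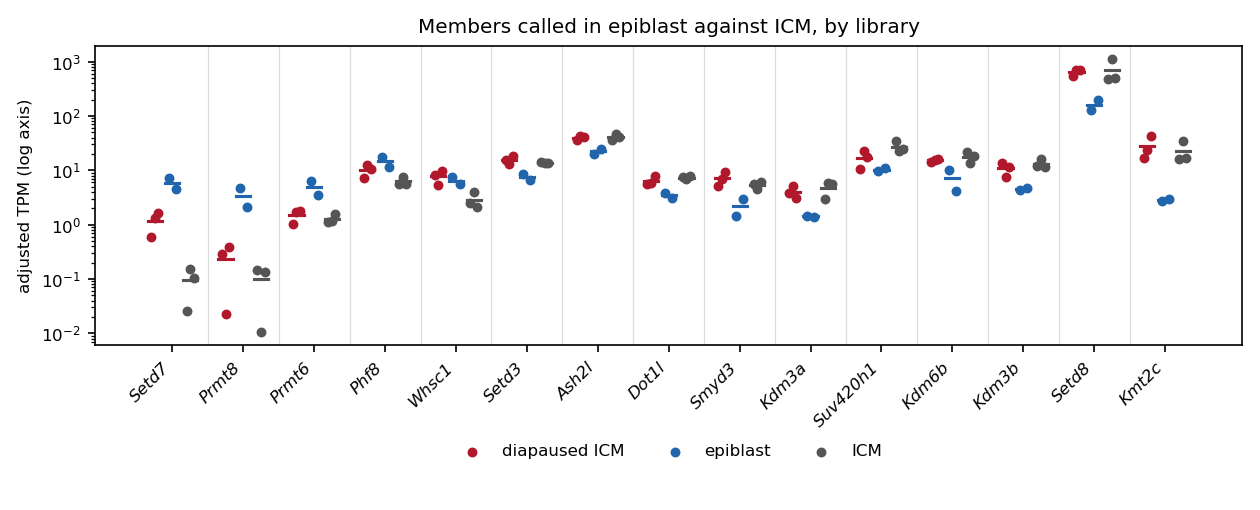
Adjusted TPM (log axis) of the 15 genes called in epiblast against ICM, each point a library and each bar a group mean. For Setd7, Prmt8 and Prmt6 the 2 epiblast points lie above those of both other groups, and for Kmt2c, Setd8, Kdm3b, Kdm3a, Kdm6b, Ash2l, Dot1l, Setd3 and Smyd3 they lie below both.

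Among the arginine methyltransferases, 0 of 9 tested genes rose and 1 fell in diapaused ICM relative to ICM, 2 were higher and 0 lower in epiblast than in ICM, and 0 higher and 3 lower in diapaused ICM relative to epiblast. These calls made up 11.1%, 22.2% and 33.3% of the 9, against 13.3%, 30.1% and 34.5% of all tested genes. Prmt1 (ENSMUSG00000052429), for the enzyme that makes most asymmetric dimethylarginine, was at 23.4, 32.8 and 36.2 in diapaused ICM, 48.0 and 39.3 in epiblast and 48.1, 61.4 and 58.9 in ICM. Prmt1 was lower in diapaused ICM than in ICM with no overlap (-0.86 ± 0.24, adjusted p = 0.0441), and the call was lost without any 1 of the 8 libraries (0.0504 to 0.126). Prmt5, for the main symmetric enzyme, was at 21.4, 15.5 and 21.7 in diapaused ICM, 33.2 and 37.3 in epiblast and 34.7, 27.4 and 33.0 in ICM. Diapaused ICM was lower than epiblast for Prmt5 (-0.83 ± 0.25, adjusted p = 0.0288) and did not pass against ICM (-0.68 ± 0.22, adjusted p = 0.0772). Of 4 PRMT5 partners, 0 were called in diapaused ICM against ICM by limma (1 at an unadjusted p under 0.05), 1 was higher and 0 lower in epiblast against ICM, and 0 were higher and 3 lower in diapaused ICM against epiblast. The 1 higher became 0 without either epiblast library. The 3 lower became 1 without diapaused ICM replicates 2 or 3 or epiblast replicate 1, and 2 without any of the others except ICM replicate 2. Without ICM replicate 2, 2 were lower in diapaused ICM against ICM. Clns1a, for a substrate adaptor of PRMT5, was at 30.6, 42.4 and 35.1 in diapaused ICM, 143 and 138 in epiblast and 65.1, 50.5 and 77.6 in ICM (diapaused ICM against epiblast -1.95 ± 0.26, adjusted p = 0.00082; against ICM -0.81 ± 0.23, adjusted p = 0.0517, or 0.0319 without ICM replicate 2 and 0.0187 after rescaling).

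The 2 arginine writers higher in epiblast than in ICM were Prmt8 and Prmt6. Prmt8 (ENSMUSG00000030350), a membrane-anchored paralog of Prmt1 known from neurons, was at 0.289, 0.0223 and 0.382 in diapaused ICM, 4.78 and 2.08 in epiblast and 0.148, 0.0107 and 0.137 in ICM. Its change was 1.94 ± 0.34 in epiblast against ICM (adjusted p = 0.00366) and -1.79 ± 0.34 in diapaused ICM against epiblast (adjusted p = 0.00468). It reached 1 in epiblast only, so it passed the filter through the group where it was high, and without an epiblast library it could not be tested. Prmt6 (ENSMUSG00000049300), for an enzyme that methylates H3R2, was at 1.05, 1.71 and 1.76 in diapaused ICM, 6.45 and 3.57 in epiblast and 1.14, 1.17 and 1.55 in ICM. The changes in the same comparisons were 1.36 ± 0.28 (adjusted p = 0.00774) and -1.23 ± 0.28 (adjusted p = 0.0103). Both Prmt6 calls were lost without epiblast replicate 1 (0.0985 and 0.117), and that of Prmt5 without either epiblast library (0.103 and 0.156) or diapaused ICM replicate 2 (0.0724). Carm1, a coactivator that methylates H3R17, was at 4.0, 5.54 and 25.4 in diapaused ICM, 6.85 and 9.87 in epiblast and 6.58, 11.8 and 10.4 in ICM. Its high value lay in diapaused ICM replicate 3, the library with the high trophectoderm sum, which came mostly from Krt18 (121). A link between Carm1 and that sum was not tested. Prmt3 (23.3 to 39.1), whose product methylates a ribosomal protein, and Prmt10, now Prmt9 (4.57 to 21.8), whose product methylates a splicing factor, were not called. Nor were Prmt7 (1.89 to 4.78), for a monomethylating enzyme, and Prmt2 (0.0644 to 2.99). Jmjd6, for a JmjC hydroxylase also described as an arginine demethylase, was at 7.94 to 16.3 in diapaused ICM, 21.2 and 26.8 in epiblast and 8.71 to 19.2 in ICM, and its change of 0.90 ± 0.38 in epiblast against ICM did not pass (adjusted p = 0.103). Without ICM replicate 3 it did (1.19, adjusted p = 0.0438), as did diapaused ICM against epiblast without that library (adjusted p = 0.0412) or diapaused ICM replicate 3 (adjusted p = 0.0376), against 0.0609 with all.

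In the SMYD and remaining SET-domain genes, 2 of 9 tested rose and 0 fell in diapaused ICM relative to ICM (22.2%, against 13.3% of all tested genes called). Smyd2 (ENSMUSG00000026603), for a methyltransferase of p53 and other non-histone proteins as well as of histones, was the clearest of all 67 in this comparison. Its level was 21.2, 19.2 and 22.0 in diapaused ICM, 11.1 and 9.78 in epiblast and 6.20, 8.83 and 4.02 in ICM. The diapaused libraries lay close together above all 5 others, 1.62 ± 0.26 over ICM (adjusted p = 0.00459) and 0.93 ± 0.29 over epiblast (adjusted p = 0.0365). The rise over ICM held in all 15 alternatives, between 1.37 and 1.85 in those that left out 1 library, whereas the difference from epiblast was lost without any library other than ICM replicates 2 or 3 (0.0555 to 0.169). Smyd2 in epiblast against ICM (0.69 ± 0.29, adjusted p = 0.106) passed without ICM replicate 2 (0.92, adjusted p = 0.0348). Setd6 (ENSMUSG00000031671), for a methyltransferase of the NF-kappaB subunit RELA and the gene with the highest mean of this group, was at 80.7, 82.3 and 74.1 in diapaused ICM, 79.6 and 60.9 in epiblast and 43.1, 35.6 and 53.4 in ICM. It was 0.85 ± 0.23 higher in diapaused ICM than in ICM (adjusted p = 0.0392), a call lost in 10 of 15 alternatives and in all leave-out fits but that without ICM replicate 3 (0.056 to 0.109).

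Other genes of this group changed in epiblast. Smyd3 was at 5.22, 7.05 and 9.34 in diapaused ICM, 1.46 and 2.97 in epiblast and 5.51, 4.52 and 6.13 in ICM. Its change was -1.02 ± 0.30 in epiblast against ICM (adjusted p = 0.0316) and 1.36 ± 0.30 in diapaused ICM against epiblast (adjusted p = 0.00889). Setd3, whose product is the histidine methyltransferase of actin, was at 15.3, 13.3 and 18.0 in diapaused ICM, 8.41 and 6.78 in epiblast and 14.3, 13.7 and 13.7 in ICM. For Setd3 these changes were -0.80 ± 0.22 (adjusted p = 0.0274) and 0.94 ± 0.22 (adjusted p = 0.0126). For both, the epiblast libraries lay below all 6 others. Their epiblast against ICM calls were lost without ICM replicates 1 (0.0754 for Smyd3 and 0.0713 for Setd3) or 3 (0.0813 and 0.0555) or epiblast replicate 1 (0.239 and 0.0858), and for Setd3 without epiblast replicate 2 (0.175). The diapaused ICM against epiblast calls were lost without epiblast replicate 1 for Smyd3 (0.0878) and replicate 2 for Setd3 (0.104). Kmt2e, for an MLL-related protein not known to methylate histones itself, was at 7.37, 11.6 and 24.9 in diapaused ICM, 13.5 and 8.53 in epiblast and 6.83, 6.14 and 6.82 in ICM. Diapaused ICM and ICM did not overlap, but there was no call (0.88 ± 0.38, adjusted p = 0.176). Setd4 was at 1.40, 0.542 and 1.62 in diapaused ICM, 1.65 and 1.66 in epiblast and 2.63, 2.52 and 3.50 in ICM (-0.86 ± 0.25, adjusted p = 0.0573). It passed as lower in diapaused ICM than in ICM under quantile normalization (-0.93, adjusted p = 0.044) and after rescaling (-0.95, adjusted p = 0.043). Setd5 (38.8 to 58.7), Smyd4 (0.623 to 1.58) and Smyd5 (1.87 to 15.5) were not called. Setmar, a SET domain gene with 0.00731 to 3.85, and Smyd1, the SMYD gene of heart and skeletal muscle, with 0.0133 to 1.48, did not reach 1 in 2 libraries and were not tested.

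In the GENCODE M21 annotation of GRCm38, which is not the build named for the files and holds 66 of the 67 genes by identifier, 4 genes had a near-identical copy elsewhere (at least 95% identity over 300 bases or more), all processed pseudogenes: Kdm2b, Kmt2d, Rbbp5 and Setd3. The gene not found was Prmt1, which was therefore not checked. The exons of 25 genes overlapped a gene on the opposite strand, among them Smyd2, Setd7, Kmt2c, Prmt8, Prmt6, Suv39h2 and Whsc1, the last with Nelfa. Those of 6 genes overlapped a gene on the same strand: Ehmt1, Jmjd6, Kdm2b, Prmt2, Prmt3 and Setd1a. No source used here says whether strand entered the quantification, and reads of such partners cannot be told apart.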

How the data were processed

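RNA sequencing of 8 libraries of mouse embryo tissue was analysed from the deposited gene table. The authors deposited a signal for each gene, headed adjusted TPM. Neither the adjustment nor the quantification program, annotation or strand setting is stated in the labels, and the depth is unknown. The submitters' processing notes list Bowtie 0.12.5, DESeq (no version) and mm9 with no role given. Columns summed to 720674 to 1179026, so the values were treated as a signal rather than TPM proper.

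Groups came from the sample titles. Genes at 1 or more in at least 2 libraries were kept (17698 of 38924). limma 3.58.1 in R 4.3.3 fitted log2(value + 1) over all 8 libraries with a mean per group and a variance trend (residual df 5, prior df 3.97), and the 3 pairs of groups were tested two-sided with Benjamini-Hochberg adjustment over all 17698 genes at 0.05. The labels call the libraries biological replicates, and p-values measure the spread between these pools. On data simulated for diapaused ICM against ICM (17698 genes, 5 runs), a log2 change of 1 was recovered for 29.8% of the genes given it and a change of 2 for 96%, with 5.27% of calls false. Changes were given only to genes with a mean level in ICM above about 5. The rates therefore do not cover members below that level, such as Kmt2b, Whsc1 and Setd7 (ICM means 3.66, 2.88 and 0.0942). The 15 alternatives were another pseudocount (0.1), no filter, a filter of 5, quantile normalization, rescaling without the 100 most abundant genes, a replicate block, a fit of only the groups compared, and leaving out each library.

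The genes, the lists of partners and markers and the rule for named genes were chosen with earlier results of these data known. By that rule, values in every library were given for each member called in diapaused ICM against ICM, for the 8 members of smallest adjusted p in each other comparison and for the member of highest mean in each residue group, and up to 4 partner genes per comparison were named; further such values were added after they were seen. Promoters came from RefSeq (GRCm38.p6), and copies and overlaps from GENCODE M21, by alignment of transcripts.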

Additional observations from a re-analysis of the deposited data

How the results depend on the processing

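Across the 15 alternatives, 2454 fold changes of members kept their direction and side of the threshold or remained uncalled, 197 lost a call, 37 gained one and 0 called values changed sign; for partner genes these were 1776, 130, 29 and 0. Of the 7, 15 and 24 members called in diapaused ICM against ICM, epiblast against ICM and diapaused ICM against epiblast, 1, 3 and 2 held in every alternative that could test them. Prmt8 is 1 of those 3 and 1 of those 2, and it could not be tested without an epiblast library. Rescaling turned the median change in epiblast against ICM to -0.03 for arginine writers (0.15 as reported) and to -0.14 for SMYD and other SET genes (0.05 as reported). With no filter on low values 1278 genes were called in diapaused ICM against ICM (2360 with it), with 1 member higher and 1 lower, 3 members were higher in epiblast against ICM, and 10 were higher in diapaused ICM against epiblast. Members higher in diapaused ICM against ICM numbered 3 under quantile normalization, 2 after rescaling without the 100 most abundant genes and 2 when only these groups were fitted, and members lower 4 after that rescaling and 1 when only these groups were fitted. Members higher in epiblast against ICM numbered 3 with a filter of 5 and 3 after rescaling. The cause of these shifts was not tested.

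Leaving out 1 library at a time, which also leaves fewer samples, gave 1404 to 2148 genes called in diapaused ICM against ICM (fewest without ICM replicate 1), with 1 to 4 members higher and 0 to 2 lower. In epiblast against ICM it gave 1788 to 5257 genes (5324 with all libraries, fewest without epiblast replicate 1), with 1 to 7 members higher and 2 to 10 lower. In diapaused ICM against epiblast it gave 2539 to 6351 genes (6113 with all, fewest without epiblast replicate 1), with 3 to 17 members higher and 0 to 8 lower. With 1 epiblast library left, that library is assumed to vary like the other groups.

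Libraries with the same replicate number had deviations from their group means that correlated between -0.0645 and 0.131, and those with different numbers between -0.148 and 0.0645. Between ICM and diapaused ICM, pairs with the same number gave 0.0175, 0.103 and 0.131, and the others -0.148 to 0.033. These values do not settle whether the number pairs the libraries. With a replicate block, 1 member was higher and 1 lower in diapaused ICM against ICM. The read depth is unknown, which limits what can be said of members near or under 1.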

Other observations

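The PRDM family, whose PR domain is related to the SET domain and in some members methylates histones, was fixed as a list beside the enzymes above. Of its 14 genes in the file 8 were tested: 1 rose and 0 fell in diapaused ICM relative to ICM. Prdm6, a gene known from smooth muscle in mouse, was at 4.59, 6.76 and 3.85 in diapaused ICM, 0.0196 and 0.102 in epiblast and 0.0370, 0.0406 and 0.0166 in ICM. All 3 diapaused libraries stood above 1 and all 5 others near 0, with a rise of 2.53 ± 0.25 over ICM (adjusted p = 0.000403 by limma) and 2.49 ± 0.28 over epiblast (adjusted p = 0.000337), both kept in all 14 alternatives that could test them. It reached 1 in diapaused ICM alone and so passed the filter through the group where it was high.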
